A study of Citrus sinensis with 6 samples.

Results

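Cs_ont_7g020660 is 1 of 29875 genes listed for sweet orange (*Citrus sinensis*) and 1 of 27 whose function annotation names oxidoreductase activity on diphenols and related substances. The gene was chosen by its FPKM (a read count divided by gene length and library depth) in the very comparison described here, as the deepest fall in leaves under NaCl. Its own levels are therefore given as a description, with no test. RNA was sequenced from leaves of tissue-cultured seedlings in 3 control libraries, grown without added NaCl, and in 3 libraries from seedlings kept in 2% NaCl for 14 days. Each replicate was a pool of seedlings, both groups were raised from seed of like condition, and no cultivar, line or seedling age is named. The control titles name leaf blades and sterile water and the NaCl titles leaf, so the leaf part taken and NaCl cannot be told apart. The study's methods give standard culture medium for the controls, in place of sterile water, and a NaCl solution for the treated seedlings. Any other difference in medium or solution cannot be told apart from NaCl either. A protocol field of the labels names boron in place of NaCl, against the titles and treatment labels, which were followed.

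Enzymes that act on diphenols take electrons from compounds such as catechol, hydroquinone or ubiquinol and turn them into quinones. Where oxygen accepts the electrons, the class includes laccases and catechol oxidases, copper enzymes known in plants for lignin formation and for the browning of injured tissue, and the alternative oxidases, which draw electrons from the quinone pool of mitochondria or plastids. Where a cytochrome accepts them, it includes the quinol-cytochrome c reductase of the respiratory chain. The annotation of Cs_ont_7g020660 places it with oxygen as acceptor and adds leaf senescence, the ordered dismantling of an ageing leaf, as a process. It names no cell compartment, no pathway and no copper binding, and the deposited table gives no gene name, so none is used here.

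Libraries held 14325408 to 17558452 reads in control and 17307079 to 19520980 in NaCl, as recovered from the FPKM values. The labelled tissue could be checked only as photosynthetic tissue, which does not tell leaf parts or other green parts apart. The 129 genes annotated with photosystems, photosynthesis or antenna proteins summed to 6473 to 11151 FPKM in control and 8779 to 12897 FPKM in NaCl. Control replicate 2 lay apart from the other controls on the first principal component, at -9.50 against -51.55 and -66.3, with the NaCl libraries at 25.6 to 51.7. Fold values and counts of calls are given below also without it; the values of single libraries and sums are not repeated. In bulk tissue, fewer cells of a type and less RNA per cell cannot be told apart.

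The transcript of Cs_ont_7g020660 was abundant in control leaves and low, near 1 FPKM, in NaCl leaves. Its level was 148 FPKM in control replicate 1, 76.3 in replicate 2 and 152 in replicate 3. In NaCl it was 1.10 FPKM in replicate 1, 0.430 in replicate 2 and 1.08 in replicate 3. The groups did not overlap, and the lowest control library was 69.1 times the highest NaCl library. Control averaged 126 ± 42.7 FPKM and NaCl 0.870 ± 0.382 FPKM (mean ± SD, n = 3 libraries per group), a ratio of 144, or 173 without control replicate 2. Within a group the libraries differed by at most 1.99 times in control and 2.57 times in NaCl. Control replicate 2 was the lowest control and NaCl replicate 2 the lowest NaCl library, but the study's methods describe no pairing of replicate numbers across groups.

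**Figure D1:**
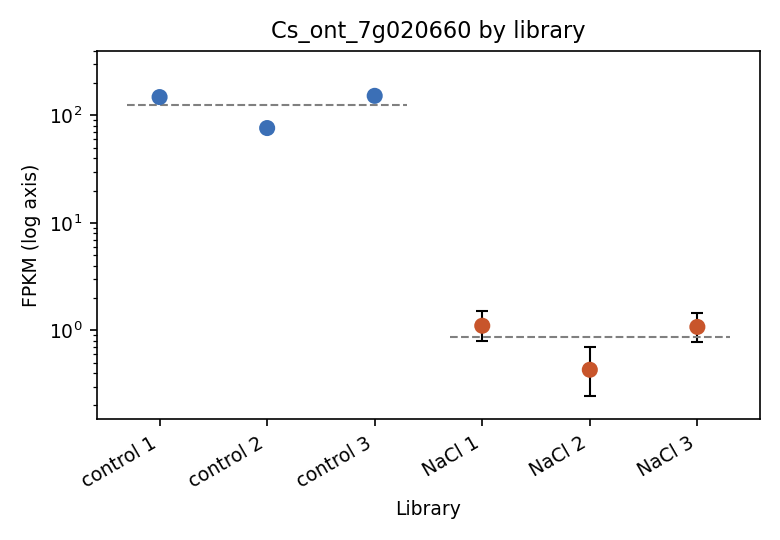
FPKM of Cs_ont_7g020660 in each library on a log axis, with dashed lines at the group means of 126 and 0.870 FPKM and bars for the 95% exact Poisson interval of the reads, which covers counting error only. The 3 control libraries lie between 76.3 and 152 FPKM and the 3 NaCl libraries between 0.430 and 1.10 FPKM.

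The reads behind these values were ample in control and few in NaCl. As the smallest whole numbers that the FPKM values allow, Cs_ont_7g020660 had 5448, 2379 and 4564 reads in control replicates 1 to 3, for a gene length of 2093 bases. It had 40 reads in NaCl replicate 1 (95% exact Poisson interval 28.6 to 54.5), 16 in replicate 2 (9.15 to 26.0) and 44 in replicate 3 (32.0 to 59.1). The intervals cover counting error only, since reads are not independent molecules. In NaCl the gene was thus above 0 in every library, and the order of the NaCl libraries rests on 16 to 44 reads.

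Among all genes listed, those at 0 in every library included, Cs_ont_7g020660 moved from the upper part to near the middle. By control mean it stood at position 694 of the 17285 genes tested (those that reached 0.5 FPKM in 3 or more libraries), above 96.0% of them. In the whole table of 29875 genes it ranked 553, 1281 and 560 in the control libraries and 15519, 16984 and 15628 in the NaCl libraries. Of the genes in that table, 23073 were above 0 in at least 1 library, and the NaCl ranks lie in the lower part of these. It took 0.0310%, 0.0160% and 0.0319% of all reads in control, and 0.000231%, 9.00e-05% and 0.000225% in NaCl. Of the 6 libraries, 5 met the minimum of 0.5 FPKM, all but NaCl replicate 2.

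On the log2(FPKM + 1) scale, which understates the change of low values, the level averaged 6.92 in control and 0.88 in NaCl, a difference of -6.04 (standard error 0.31). This was the lowest of the 17285 tested differences, whose median was 0.18. The next fall was -5.47, in a gene annotated to the extracellular region, with no function or pathway given, at 338, 238 and 467 FPKM across the control libraries and 16.6, 7.10 and 2.04 FPKM across the NaCl libraries. After it came -5.30 and -4.68, and 5 genes in all lay below -4. Without control replicate 2 the difference of Cs_ont_7g020660 was -6.36, and omitting each of the other libraries in turn gave -6.13 to -5.85. On the scale from the mean of control replicates 1 and 3 (0) to the mean of NaCl (1), control replicate 2 stood at 0.152 for this gene. Adding 0.01 instead of 1 before the logarithm gave -7.21, and the recovered reads gave -7.19.

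**Figure D2:**
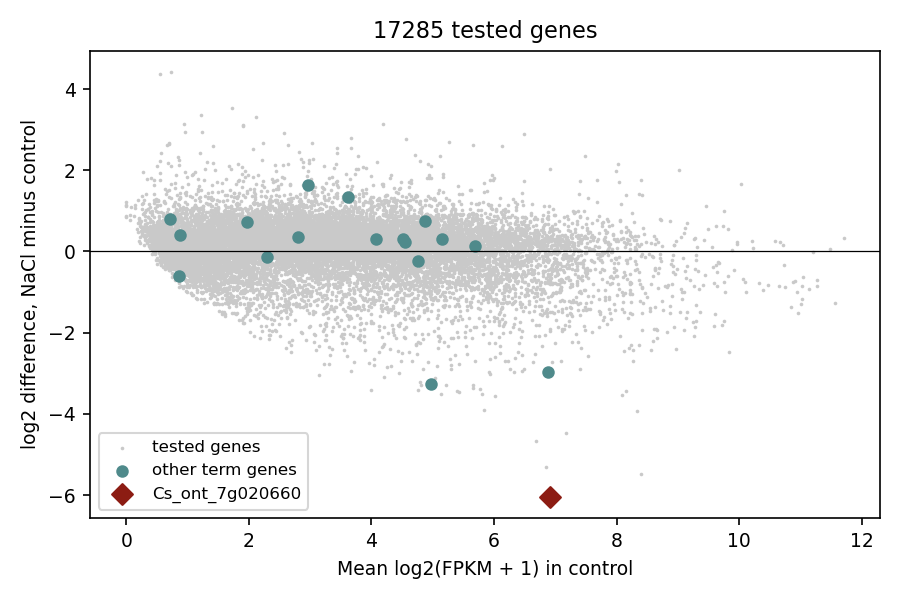
Difference of log2(FPKM + 1) between NaCl and control against the control mean of log2(FPKM + 1) for the 17285 tested genes, with the 18 tested genes of the diphenol oxidoreductase term marked. Cs_ont_7g020660 (diamond) is the lowest point at -6.04. Of the other marked genes, 2 lie below -2.

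Of the 27 genes of the function term, 21, Cs_ont_7g020660 included, carried exactly the same annotation in every category, namely oxygen as acceptor together with leaf senescence. The other 6 were 3 alternative oxidase genes, 2 hydroquinone oxidase genes, which the annotation also gives an action on metal ions, and 1 quinol-cytochrome c reductase gene. Copper ion binding, a mark of laccases and catechol oxidases, was given to 0 of the 27 genes. The identifiers of the 21 genes fell on 7 chromosome series of the numbering. Of these genes, 15 lay in 5 runs of neighbouring identifiers (at most 30 apart in number), while Cs_ont_7g020660 was 1 of 6 that stood alone. Genes in such runs can be similar in sequence, and whether reads were shared between them was not tested.

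Many genes of this group were low in leaves or listed at 0. Of the 21 genes, 3 were listed at 0 in all 6 libraries, 8, those 3 included, stayed under 1 FPKM in every library, and 9 were too low to test. The 9 untested genes reached 1.09 FPKM at most. In control leaves Cs_ont_7g020660 was the highest of the 21 in replicates 1 and 2 and the second in replicate 3, and it made up 34.0%, 25.6% and 31.3% of their summed FPKM. In NaCl it ranked 10, 13 and 12 of the 21, at 0.773%, 0.170% and 0.580% of the sum.

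The other genes were tested with limma over all 17285 genes, and a call needed an adjusted p no higher than 0.05 and a log2 fold change no smaller than 1 in size. Membership of the term does not depend on expression, and Cs_ont_7g020660 was left out of these counts. Of the other 26 genes of the term 17 could be tested, 2 were called lower and 0 were called higher. Over all tested genes 1.75% were called lower and 0.978% higher. At an unadjusted p of 0.05 and the same fold, 2 were lower and 2 higher, beside 5.1% and 3.54% of all tested genes. Limma with voom weights on the recovered reads called 1 lower and 0 higher, beside 1.49% and 0.816%. The signs were 5 negative and 12 positive, with a median of 0.31 beside 0.18 for all tested genes. The groups did not overlap for 8 of the 17 genes, 2 lower and 6 higher in NaCl, beside 36.1% of all tested genes (11 of 17 beside 60.1% without control replicate 2). Without control replicate 2, 3 genes were called lower, in a setting that called 1800 genes in all, 5.11% of the tested genes lower and 5.3% higher. The added gene lies in the run of Cs_ont_1g002760 and had at most 1.71 FPKM in any library. With any other single library left out 0 of the 17 were called, and 0 to 120 genes in all.

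Both called genes belong to the 21 with the shared annotation. Cs_ont_1g002760 had 135, 66.0 and 175 FPKM across the control libraries and 14.6, 10.3 and 18.2 FPKM across the NaCl libraries. All its control libraries were higher than its NaCl libraries, and control replicate 2 was again the lowest control. Control averaged 126 ± 55.4 FPKM and NaCl 14.3 ± 3.96 FPKM (mean ± SD, n = 3 libraries per group). The log2 fold change, -2.97 with a standard error of 0.38, passed the limma test (adjusted p = 0.0366). In control leaves its level was close to that of Cs_ont_7g020660, with a ratio of the latter to the former of 1.10, 1.16 and 0.867 in replicates 1 to 3. In NaCl leaves that ratio was 0.0758, 0.0419 and 0.0593. The ratio is a description, since Cs_ont_7g020660 was chosen on its fall.

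Cs_ont_4g024270 had 27.0, 21.2 and 48.3 FPKM across the control libraries and 0.247, 5.53 and 3.28 FPKM across the NaCl libraries. The groups did not overlap, and NaCl replicate 1 stood far below the other NaCl libraries. Control averaged 32.2 ± 14.3 FPKM and NaCl 3.02 ± 2.65 FPKM (mean ± SD, n = 3 libraries per group), and the log2 fold change, -3.26 with a standard error of 0.62, passed the limma test (adjusted p = 0.0477). The gene is short, with 234 bases implied by the FPKM values, so the reads were few, with 111, 74 and 162 in control and 1, 23 and 15 in NaCl. Its call was lost when any single library other than control replicate 2 was left out (limma adjusted p between 0.0510 and 0.193), and the call of Cs_ont_1g002760 was lost in the same settings (limma adjusted p between 0.0507 and 0.160).

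The gene with the next identifier, Cs_ont_4g024280, had the opposite sign. It had 8.33, 4.71 and 7.97 FPKM across the control libraries and 14.6, 58.2 and 15.0 FPKM across the NaCl libraries. The groups did not overlap, but NaCl replicate 2 stood far above the other NaCl libraries. A log2 fold change of 1.65 with a standard error of 0.53 did not pass (limma adjusted p = 0.106). Without NaCl replicate 2 it was 1.01. The neighbouring pair thus shared an annotation and differed in sign, and the sum of the pair was 35.3, 25.9 and 56.3 FPKM across the control libraries and 14.9, 63.7 and 18.2 FPKM across the NaCl libraries.

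In the run of 5 identifiers that starts with Cs_ont_5g033940, log2 fold changes ranged from -0.23 to 1.34. Cs_ont_5g033940 itself had 9.93, 12.5 and 11.6 FPKM across the control libraries and 20.4, 53.8 and 25.0 FPKM across the NaCl libraries, where replicate 2 was again the highest. Its log2 fold change, 1.34 with a standard error of 0.35, did not pass (limma adjusted p = 0.0730). This gene is short too, with 258 bases implied by the FPKM values. It had 45, 48 and 43 reads in control and 91, 247 and 126 in NaCl. The other 4 genes of the run had limma adjusted p-values of 0.137 to 0.704. The most expressed of the 21 genes in NaCl leaves lay on series 9, with 50.6, 59.5 and 42.7 FPKM across the control libraries and 38.7, 66.9 and 64.8 FPKM across the NaCl libraries. Its groups overlapped, and the difference of 0.13 on the log2 scale did not pass (limma adjusted p = 0.746).

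**Figure D3:**
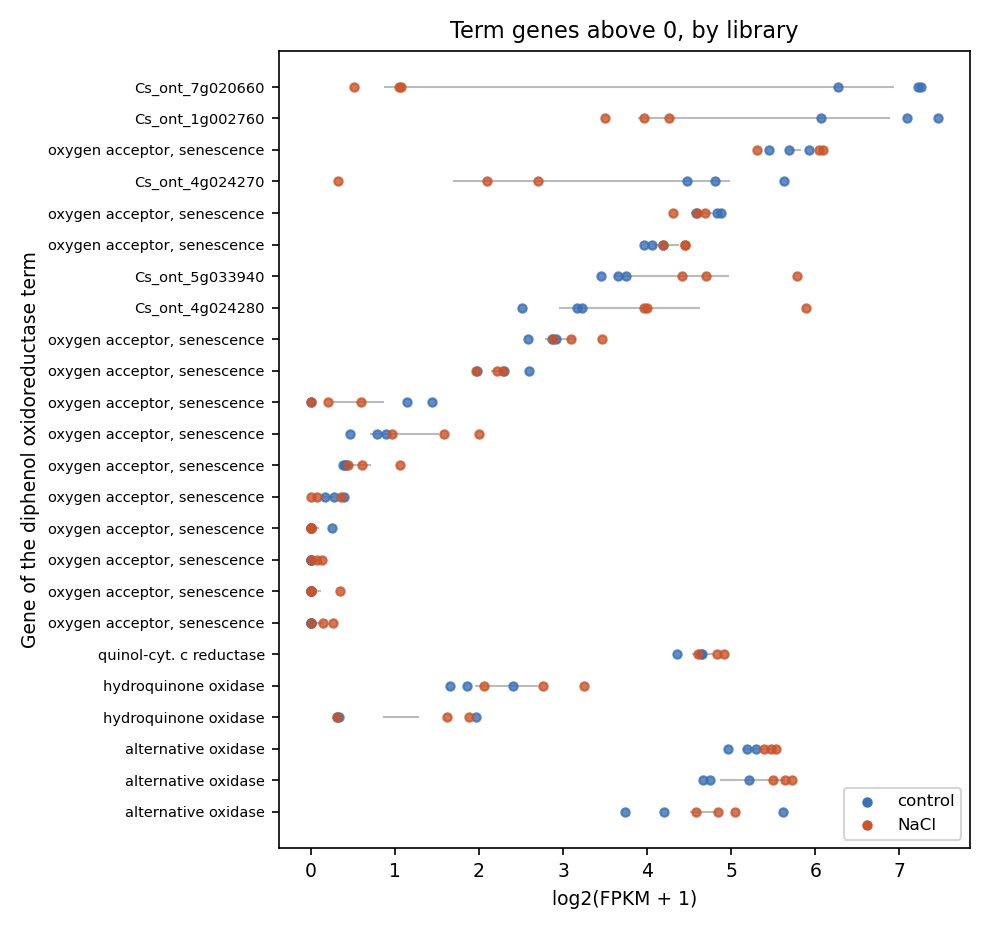
log2(FPKM + 1) in each of 3 control and 3 NaCl libraries for the 24 genes of the diphenol oxidoreductase term that were above 0 in at least 1 library, ordered by class and by control mean, with a grey line between the group means. Points of the 2 groups lie far apart for Cs_ont_7g020660, Cs_ont_1g002760 and Cs_ont_4g024270, while the 3 alternative oxidase genes stay between 12.3 and 51.8 FPKM in all libraries.

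The summed level of the 21 genes rested mostly on 3 of them in control and on the other 18 in NaCl. It was 436, 298 and 487 FPKM across the control libraries and 143, 253 and 186 FPKM across the NaCl libraries. Cs_ont_7g020660, Cs_ont_1g002760 and Cs_ont_4g024270 together held 71.2%, 54.9% and 77.3% of it in control and 11.1%, 6.40% and 12.1% in NaCl. The other 18 genes summed to 126, 134 and 110.5 FPKM across the control libraries and 127, 237 and 163 FPKM across the NaCl libraries, where NaCl replicate 1 was within the range of the controls. The 3 genes were singled out after their values were seen, so these sums are a description.

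**Figure D4:**
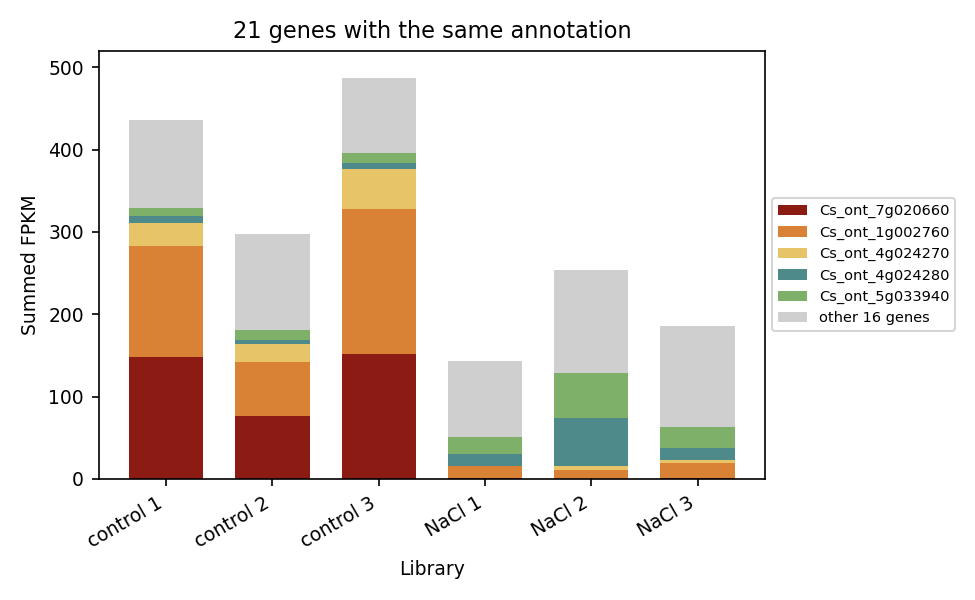
Summed FPKM of the 21 genes with the annotation of Cs_ont_7g020660 in each library, stacked by gene, with 16 genes pooled in grey. The bars reach 298 to 487 FPKM in control and 143 to 253 FPKM in NaCl, and the segment of Cs_ont_7g020660 shrinks from 76.3 to 152 FPKM to at most 1.10 FPKM.

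None of the 6 term genes with another annotation was called, and all 6 had positive log2 fold changes, of which 1 turned negative without control replicate 2. The alternative oxidases, which pass electrons from quinols to oxygen without pumping protons, had log2 fold changes of 0.31 to 0.75. The highest of these, 0.75, belonged to a gene at 24.3, 36.0 and 26.0 FPKM across the control libraries and 49.0, 51.8 and 44.2 FPKM across the NaCl libraries (limma adjusted p = 0.0643, standard error 0.18), whose groups did not overlap. The 1 alternative oxidase gene annotated to the thylakoid, the photosynthetic membrane of plastids, had 35.5, 38.1 and 30.2 FPKM across the control libraries and 43.3, 45.3 and 40.9 FPKM across the NaCl libraries. Its groups did not overlap either, with a difference of 0.32 on the log2 scale (limma adjusted p = 0.178). The third alternative oxidase gene ranged from 12.3 to 47.9 FPKM in control, around its NaCl range of 23.0 to 32.0 FPKM, and its difference of 0.31 on the log2 scale was -0.08 without control replicate 2. Both hydroquinone oxidase genes, annotated to the cell wall and to the response to phosphate starvation, were low, at 0.239 to 4.29 FPKM in control and 0.242 to 8.53 FPKM in NaCl, and differed by 0.40 and 0.72 on the log2 scale (limma adjusted p = 0.659 and 0.211). The quinol-cytochrome c reductase gene differed by 0.23 (limma adjusted p = 0.331). Of the 6 genes, 1 had an unadjusted p of at most 0.05 in limma, beside 30.3% of all tested genes, and 0 were called with voom weights or without control replicate 2.

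Leaf senescence, the process in the annotation of Cs_ont_7g020660, was also given to 55 genes outside the function term, of which 45 could be tested. Of these, 0 were called by limma in either direction, beside 1.75% lower and 0.978% higher of all tested genes, and 0 with voom weights. At an unadjusted p of 0.05 with the fold change minimum, 2 were lower and 3 higher, beside 5.1% and 3.54%. Without control replicate 2, 1 was called lower and 4 higher, beside 5.11% and 5.3%. Their log2 fold changes ran from -1.79 to 2.29 with a median of 0.36, beside 0.18 for all tested genes.

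The genes with identifiers next to Cs_ont_7g020660 did not share its fall. The 10 identifiers on each side give 20 genes, of which 3 were listed at 0 in every library and 13 could be tested. Their log2 fold changes lay between -0.70 and 0.73, and 0 were called by limma, with voom weights or without control replicate 2, where the differences lay between -0.76 and 0.95. At an unadjusted p of 0.05 there were 4, beside 30.3% of all tested genes, and 0 of them had the fold change minimum. The lowest value, -0.70 (limma adjusted p = 0.0683, standard error 0.17), belonged to the next higher identifier, annotated as a glucosyltransferase of quercetin, an enzyme that attaches glucose to a flavonol. It had 11.0, 9.78 and 11.2 FPKM across the control libraries and 6.42, 5.003 and 7.18 FPKM across the NaCl libraries. The next lower identifier was listed at 0 in every library. For 5 of the 13 genes the groups did not overlap, 1 of them lower in NaCl, beside 36.1% of all tested genes.

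**Figure D5:**
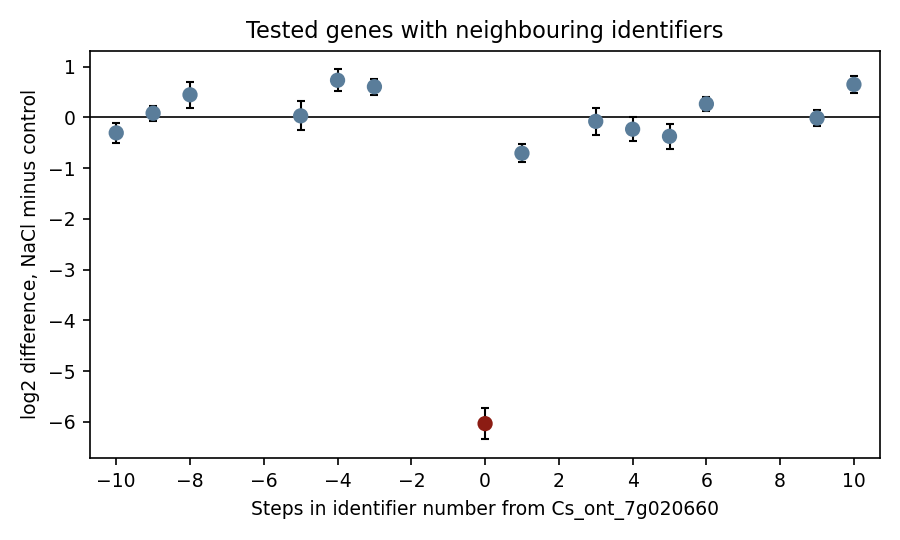
Difference of log2(FPKM + 1) between NaCl and control, with its standard error, for the 13 tested genes within 10 identifiers on either side of Cs_ont_7g020660 and for the gene itself (dark point at 0 steps). The neighbours lie between -0.70 and 0.73 and Cs_ont_7g020660 at -6.04.

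Genes with a pattern most like that of Cs_ont_7g020660 were found by Pearson's r of log2(FPKM + 1) over the 6 libraries, a description in which the 2 groups form separate clusters. Of the other 17284 tested genes, 9 had an r of at least 0.99, 308 of at least 0.95 and 909 of at least 0.90. The highest r, 0.998, belonged to a DNA-binding transcription factor gene of plant hormone and MAPK signalling. It had 47.7, 28.7 and 51.4 FPKM across the control libraries and 3.58, 2.05 and 3.25 FPKM across the NaCl libraries, so replicate 2 was the lowest in both groups, as for Cs_ont_7g020660. The next genes were an isomerase of unsaturated fatty acyl-CoA (r = 0.996), a gene with no annotation (r = 0.996), a phospholipase A1 and galactolipase gene, which releases fatty acids from membrane lipids (r = 0.995), and a gene of the phagosome pathway (r = 0.995). For the 5 genes in this order, the r within the control libraries alone was 0.996, 0.874, 0.961, 0.956 and 0.999. Within the NaCl libraries alone it was 0.989, 0.623, -0.252, -0.455 and 0.927. Each of these within-group values rests on only 3 libraries. Without control replicate 2 the r of these 5 genes lay between 0.994 and 0.999, and 107 genes had an r of at least 0.99. Their own differences ran from -3.44 for the transcription factor gene to -0.71 for the isomerase gene. Within the function term the r was 0.981 for Cs_ont_1g002760, 0.890 for Cs_ont_4g024270, -0.781 for Cs_ont_4g024280 and -0.943 for the alternative oxidase gene with the highest log2 fold change.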

How the data were processed

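The members and lists were chosen with earlier results of these data known. The authors deposited FPKM per gene and library, from reads aligned to a sweet orange genome with HISAT2 and counted with HTSeq per the labels. The study's methods name featureCounts instead, with pairs counted as fragments and a stranded setting, so a read here may be a fragment. Whether the identifiers belong to the genome build named there was not checked. The authors also deposited group means of FPKM, a log2 fold change and a p-value per gene from their own comparison, and none of these was used. Process terms of 3183 genes were not used. Replicates are independent pools of seedlings per the study's methods.

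Whole reads were recovered from ratios of FPKM between libraries for 100% of 23073 genes above 0 (relative tolerance 1e-09), and library totals as those that make gene lengths whole (99.2% of 600 genes within 0.01 bases). A gene's reads are the smallest whole numbers, so a common factor may be missing.

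The test was limma 3.58.1 (R 4.3.3, mean-variance trend) on log2(FPKM + 1) for the 17285 genes with at least 0.5 FPKM in 3 libraries, with Benjamini-Hochberg adjustment over all of them. Tables were handled with Python 3.11.15 and pandas 2.3.3. The fit was first tested on simulated data, where it recovered 66 of 100 genes changed by 1.5 on the log2 scale and 86 of 100 changed by 3.0. It also called 9 unchanged genes. The simulated data had independent normal noise and no library set apart as control replicate 2 is, so these rates may not hold for the real libraries. A gene that was not called may thus still differ.

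Named were Cs_ont_7g020660, the other genes of its function term with at most 2 identifiers printed in each direction, the 5 genes most correlated with it, the genes within 10 identifiers on each side, and the next falls. The 14 lists were word patterns on term and pathway names, and a list for leaf senescence was added after its annotation was seen; catechol oxidase and L-ascorbate oxidase matched 0 genes. The alternatives were each library left out, the replicate block, pseudocounts of 0.1 and 0.01, no filter, a minimum of 1 FPKM, quantile and upper-quartile normalization, voom weights on recovered reads, and other thresholds. List and neighbour counts without control replicate 2 were added after seeing the data. The RefSeq gene table (assembly DVS_A1.0) matched 0 identifiers, so no sequence or coordinate is printed.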

Additional observations from a re-analysis of the deposited data

How the results depend on the processing

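The difference of Cs_ont_7g020660 on the log2(FPKM + 1) scale stayed between -6.36 and -5.85 with any single library left out, and it was -7.04 and -7.21 with pseudocounts of 0.1 and 0.01 and -7.19 with voom weights on the recovered reads. It was -5.98 with quantile normalization and -6.13 with upper-quartile scaling, moves smaller than the pooled SD of 0.454. The replicate block, no filter and the minimum of 1 FPKM cannot change this difference. The count of 2 other term genes called was 1 with the replicate block, with either smaller pseudocount, with upper-quartile scaling and with voom weights, 0 with no filter, and 4 at an unadjusted p with the fold change minimum; it ranged from 0 to 3 with single libraries left out. The remaining call of these 1-gene counts was that of Cs_ont_1g002760. Over the enzyme lists and the apoplast and cell wall list together, 20 of 964 tested genes were called (12 lower and 8 higher). Of all tested genes 1.75% were called lower and 0.978% higher. The count was 0 with the replicate block and 2 with no filter, where 7 and 40 genes were called in all. It ranged from 0 to 102 with single libraries left out. The 102 (39 lower and 63 higher) came without control replicate 2, beside 5.11% lower and 5.3% higher of all tested genes. The study's methods describe no pairing by replicate number, and deviations of same-numbered libraries correlated at -0.0343, 0.0260 and -0.0710 over the tested genes. The block called 7 of 17285 genes against 472 without it, but it also uses up error degrees of freedom, so the drop cannot decide pairing. With the block the standard error fell from 0.38 to 0.19 for Cs_ont_1g002760 and from 0.62 to 0.53 for Cs_ont_4g024270. For Cs_ont_5g033940 it fell from 0.35 to 0.26, and for Cs_ont_4g024280 it rose from 0.53 to 0.56. The limma adjusted p of Cs_ont_1g002760 was 0.0459 with the block and 0.0366 without it. These values do not decide pairing either. Depth limits what can be said of Cs_ont_7g020660 among the NaCl libraries, at 16 to 44 reads each.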

Other observations

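Other lists of phenolic and redox enzymes are given beside the shares of all tested genes called, 1.75% lower and 0.978% higher, or 5.1% and 3.54% at an unadjusted p of 0.05 with the fold change minimum. In phenylpropanoid biosynthesis, which supplies lignin and other phenols, 3 of 142 tested genes were called lower and 2 higher by limma (13 lower and 16 higher at the unadjusted threshold), and in flavonoid biosynthesis 2 of 51 were lower and 0 higher (1 lower and 0 higher with voom weights, 4 lower and 6 higher at an unadjusted p of 0.05 with the fold change minimum). In ascorbate and aldarate metabolism, which makes and recycles the antioxidant ascorbate, 0 of 41 were lower and 2 higher in limma, and the same counts came with voom weights (1 lower and 4 higher at an unadjusted p of 0.05 with the fold change minimum). In tyrosine metabolism 1 of 38 was lower and 1 higher (2 lower and 1 higher at the unadjusted threshold). Of the genes annotated to the apoplast, the extracellular region or the cell wall, 8 of 687 were lower and 3 higher (40 lower and 21 higher at the unadjusted threshold). Without control replicate 2, where 5.11% of all tested genes were called lower and 5.3% higher, the counts lower and higher were 9 and 14 for phenylpropanoid biosynthesis, 3 and 8 for flavonoid biosynthesis, 1 and 5 for ascorbate and aldarate metabolism, 1 and 3 for tyrosine metabolism and 30 and 38 for the apoplast and cell wall list.

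Of 88 tested copper ion binding genes, 19 of lignin metabolism and 30 with peroxidase activity, 0 were called by limma and 0 with voom weights. At an unadjusted p of 0.05 with the fold change minimum, 2 copper genes were lower and 2 higher, 1 lignin gene lower and 3 higher, and 2 peroxidase genes lower and 0 higher, beside 5.1% lower and 3.54% higher of all tested genes. With control replicate 2 left out, the calls lower and higher were 0 and 4 for copper ion binding, 1 and 2 for lignin metabolism and 1 and 1 for peroxidase activity. In that setting 5.11% of all tested genes were called lower and 5.3% higher. The median log2 fold change was 0.33 for copper ion binding, 0.36 for lignin metabolism and -0.07 for peroxidase activity, beside 0.18 for all tested genes. A list for quinol-cytochrome c reductases held 2 tested genes with a median of 0.22, and 0 were called by limma (0 at an unadjusted p of 0.05 and 0 with voom weights). Of 99 tested photosystem and photosynthesis genes, 2 were called higher and 0 lower by limma and with voom weights (10 higher and 2 lower at an unadjusted p of 0.05 with the fold change minimum), with a median of 0.53. With control replicate 2 left out, 9 were called higher and 2 lower, beside 5.3% higher and 5.11% lower of all tested genes.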
